A study of Homo sapiens with 6 samples.

Results

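The 93 genes described here are the nuclear genes of the mitochondrial respiratory chain and ATP synthase, 93 of the 17064 genes measured in MDA-MB-231 cells. They were chosen by symbol alone: symbols that start with NDUFA, NDUFB, NDUFC, NDUFS or NDUFV, with UQCR, with COX4 to COX8 or with ATP5, together with SDHA, SDHB, SDHC, SDHD and CYC1. Hyphenated symbols, which stand for readthrough transcripts of neighbouring genes, were left out (2 genes). Grouped by symbol, the set holds 39 genes under complex I, 8 assembly factors of complex I (NDUFAF genes) and 4 genes under complex II. Complexes III, IV and V hold 10, 14 and 18 genes. These groups follow the symbols. The complex in which each protein works was not checked, for instance for NDUFA4 and ATP5SL.

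MDA-MB-231 is a human triple-negative breast cancer line that grows with a mesenchymal appearance. RNA was sequenced from 6 libraries of lentivirally transduced cells, with guides delivered in lentiCRISPRv2: vector 1 and vector 2 carry the empty vector from separate transductions, MRCKα KO was edited at CDC42BPA, MRCKβ KO at CDC42BPB, and DKO 1 and DKO 2 at both genes with different guide sets. MRCKα and MRCKβ are kinases that act downstream of Cdc42 on actomyosin. The cells were drug-selected pools without clone picking, so a pool can hold unedited cells. By immunoblot, the study reported very efficient loss of the proteins in its MDA-MB-231 knockout cells. The sources used here do not give which guide made which library.

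Oxidative phosphorylation takes place in the inner mitochondrial membrane. Complex I (NADH dehydrogenase) and complex II (succinate dehydrogenase) pass electrons to ubiquinone, complex III passes them to cytochrome c and complex IV (cytochrome c oxidase) to oxygen, while complexes I, III and IV pump protons that drive ATP synthesis by complex V. Most subunits are encoded in the nucleus, and the genes of mitochondrial DNA that encode the others are not analysed here. The transcription factors NRF1, the ETS-family factor GABP and YY1 are known for binding promoters of these genes.

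Promoter sequence was available from RefSeq (GRCh38.p14) for 75 of the 93 genes, as 300 bases from 250 before to 50 after the start. Short words (3) were searched on both strands: GCGCATGC, the core of the NRF1 motif, CCGGAAG, the core of the ETS motif, and AAGATGG, the core of the YY1 motif. GCGCATGC and its reverse complement GCATGCGC can overlap, and a promoter was counted once. The NRF1 word stood in 15 of the 75 promoters (20%), against 3.27% of 27305 promoters and 5.39% of the 10692 promoters of genes tested below. The ETS word stood in 26.7% of them, against 10.7% of all promoters and 19.1% of those of tested genes, and the YY1 word in 21.3%, against 6.06% and 7.5%. In the promoters of mitochondrial ribosomal protein genes the shares were 8.7% for the NRF1 word, 40.6% for the ETS word and 33.3% for the YY1 word. At least one of the words was found in 38 promoters and none in 37.

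The NRF1 word is shown in 6 promoters, because the RNA of these genes lay on one side of both vector libraries in every knockout library. COX5B, COX6A1, NDUFA6 and SDHB lay above, and ATP5G2 and NDUFS7 below, as described further on. The ETS word also stands in the promoters of COX5B, COX6A1 and SDHB, and is shown for these as well. Each sequence reads 5′ to 3′ on the strand of the gene with the word in capitals, and lies before the start of the gene. The positions are chr2:97645906-97645953 and chr2:97646005-97646051 (plus strand) for COX5B, chr12:120437875-120437922 and chr12:120438077-120438112 (plus) for COX6A1, chr22:42090911-42090958 (minus) for NDUFA6, chr1:17054205-17054252 and chr1:17054134-17054180 (minus) for SDHB, chr12:53676096-53676143 (minus) for ATP5G2 and chr19:1383814-1383861 (plus) for NDUFS7.
COX5B, NRF1 word: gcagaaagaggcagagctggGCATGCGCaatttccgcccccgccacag
COX5B, ETS word: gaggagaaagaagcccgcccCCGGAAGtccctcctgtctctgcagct
COX6A1, NRF1 word: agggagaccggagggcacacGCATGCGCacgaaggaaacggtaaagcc
COX6A1, ETS word: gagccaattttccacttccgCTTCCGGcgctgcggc
NDUFA6, NRF1 word: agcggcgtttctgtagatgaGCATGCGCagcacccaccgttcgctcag
SDHB, NRF1 word: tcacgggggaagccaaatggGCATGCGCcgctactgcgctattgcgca
SDHB, ETS word: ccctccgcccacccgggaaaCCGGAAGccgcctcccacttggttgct
ATP5G2, NRF1 word: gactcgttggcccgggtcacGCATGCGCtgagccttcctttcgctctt
NDUFS7, NRF1 word: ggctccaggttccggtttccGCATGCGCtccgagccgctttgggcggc
The NRF1 word thus occurred in genes that lay above vector and in genes that lay below it. The other genes with the NRF1 word did not lie on one side of vector in every knockout library. Not shown are a further NRF1 word of COX6A1 (chr12:120437919-120437966) and the YY1 word in the promoters of SDHB, NDUFA6 and NDUFS7. A match is a description of the letters and shows no binding.

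The expected counts, which are estimated reads per gene, summed to between 10349898 and 10657857 per library, with 12935 to 13071 genes at 10 counts or more. FPKM, the reads scaled by transcript length and by library total, was used to compare genes with each other. VIM stood at an FPKM of 1532 to 2052 and KRT18 at 153 to 189, while CDH1 did not exceed 0.64. Among receptor genes, ESR1 did not exceed 0.87 and PGR 0.03, while ERBB2 stood at 13.23 to 16.15. The 6 leukocyte, endothelial and fibroblast markers summed to an FPKM of 4.96 to 12.6. Of these, CDH5 did not exceed 0.07, PTPRC 1.24, CD14 1.23, PECAM1 1.88, COL1A1 3.26 and PDGFRB 5.90. The RNA of the targeted genes was present in all libraries: the FPKM of CDC42BPA was 36.4 and 23.3 in vector 1 and vector 2, 29.4 in MRCKα KO, and 28.3 and 26.1 in DKO 1 and DKO 2. That of CDC42BPB was 30.3 and 29.1 in vector, 25.7 in MRCKβ KO and 23.4 and 23.5 in DKO. Small insertions and deletions need not lower RNA, so the genotypes cannot be read from these levels.

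The oxidative phosphorylation genes were among the more abundant RNAs of these cells. Their summed FPKM was 7227 and 7451 in the vector libraries, 7421 and 7240 in the DKO libraries, and 7748 and 7608 after loss of MRCKα or MRCKβ alone. This was between 1.73% and 1.85% of the FPKM of all genes, and, with transcripts shorter than most, between 0.657% and 0.700% of the counts. The low-count filter of edgeR kept 88 of the 93 genes, and 80 of these 88 had a mean FPKM above the median of all 13123 genes that passed. The median FPKM was 61.5 over the 88 genes and 10.6 over all genes tested, and the median transcript length was 890 and 3084 bases. All but COX6B2 of the 88 genes had at least 100 counts in every library (87 genes).

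Levels were spread unevenly within the complexes. Among the 7 core subunits of complex I, which carry the flavin, the iron-sulfur clusters and the quinone site, the mean FPKM spanned 3.90-fold from NDUFS7 at 23.5 to NDUFV2 at 91.8. The 31 accessory subunits that were tested spanned 23.2-fold, from NDUFA5 at 6.45 to NDUFA12 at 150, NDUFA1 at 147 and NDUFS5 at 132. The assembly factors, which help to build complex I and are not part of it, were lower as a group, with a median of 9.21 and a range from NDUFAF6 at 6.94 to NDUFAF2 at 56.2. In complex II the mean FPKM was 82.8 for SDHA, the flavoprotein, 70.8 for SDHB, the iron-sulfur subunit, and 51.4 and 33.8 for the membrane anchors SDHD and SDHC.

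In complex III the highest genes were UQCRH at a mean FPKM of 161, CYC1 (cytochrome c1) at 139 and UQCRFS1 (the Rieske iron-sulfur protein) at 94.0, and the lowest tested gene was UQCR11 at 24.4. Complex IV held the highest gene of all 93, COX6A1 at 452, followed by COX7C at 280 and COX8A at 277. In complex V the highest were ATP5E (subunit epsilon) at 321, ATP5B (the catalytic beta subunit) at 249 and ATP5A1 (the alpha subunit) at 186, and the lowest tested gene was ATP5S at 7.66. FPKM of genes with overlapping readthrough transcripts (NDUFC2 and ATP5J2) is uncertain, since reads can be split between the symbols.

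**Figure D1:**
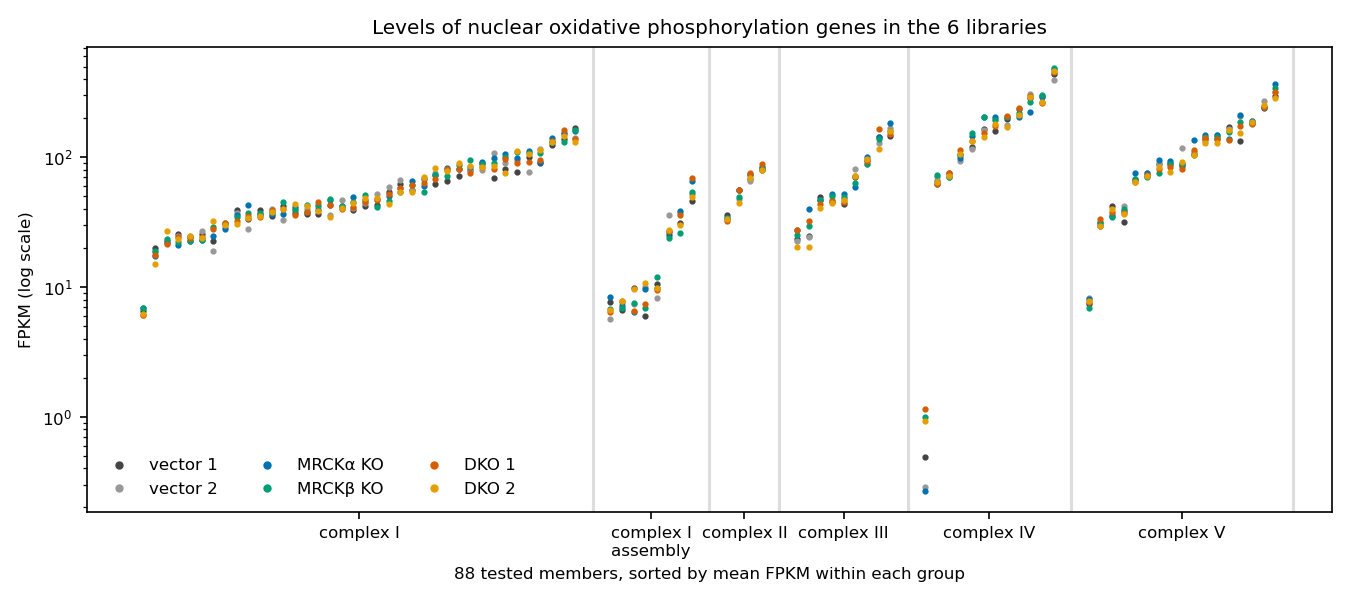
FPKM (log scale) of the 88 tested genes in each of the 6 libraries, sorted by mean FPKM within complex I, its assembly factors and complexes II to V, with 1 point per library. The order of the genes was similar in all libraries, and the only gene near 1 is COX6B2, with a mean of 0.685.

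The order of the genes was kept across the knockouts. Over the 88 genes, Pearson's r of log2 FPKM between libraries was between 0.982 and 0.994 for the 15 pairs of libraries, given as a description, since all pairs share the gene-specific level and length. The replicates also lay closer together than over all genes tested. The median absolute log2 ratio of vector 1 to vector 2 was 0.13 over the 88 genes and 0.24 over all genes tested, and that of DKO 1 to DKO 2 was 0.11 and 0.17. Other mitochondrial groups varied, mainly between the vector libraries. The 2 values were 0.10 and 0.10 over 16 genes of the citric acid cycle and pyruvate dehydrogenase. They were 0.17 and 0.10 over 77 mitochondrial ribosomal protein genes, and 0.18 and 0.11 over 8 carriers and related genes. Over 39 assembly factors of complexes II to V they were 0.23 and 0.10. Within the set, the 8 assembly factors of complex I lay further apart, at 0.36 and 0.17. Cytosolic ribosomal protein genes stood at 0.29 and 0.11. The genes of the set were also more highly expressed than most, and the part of expression level in the smaller spread was not tested.

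Tissue-restricted isoforms were at or near 0 beside their widely expressed partners. COX6B2, the testis isoform of COX6B, made up between 0.133% and 0.650% of the summed FPKM of COX6B1 and COX6B2. COX7A1, the isoform of heart and skeletal muscle, was at 2 counts in MRCKα KO and 0 in the other libraries, and NDUFA4L2, a hypoxia-induced paralog of NDUFA4, at 2 counts in MRCKβ KO and 0 in the others. COX7B2 had at most 1 count, UQCRHL 0 counts after rounding, and ATP5L2 between 2 and 5. These 5 genes were not tested, and a count of 0 allows up to 3 counts in a library. UQCRHL and ATP5L2 are near copies of UQCRH and ATP5L, so that their reads can be assigned to either.

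Subunit c of ATP synthase is encoded by ATP5G1, ATP5G2 and ATP5G3, whose mature proteins are identical. ATP5G2 gave 53.1% to 59.7% of their summed FPKM, ATP5G1 30.1% to 37.4% and ATP5G3 9.57% to 13.4%. The ATP5G2 share was 59.7% and 53.1% in the vector libraries and 54.3% and 57.5% in the DKO libraries, so that the DKO values lay between those of vector. COX7A2L, which takes part in joining complexes III and IV, stood at an FPKM of 62.0 to 72.5, close to COX7A2 at 70.0 to 75.7.

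The comparison of DKO with vector asked whether loss of both kinases changed the RNA of these genes, and is the only one with replicates on both sides. No gene of the 88 was called: the quasi-likelihood test of edgeR, adjusted by Benjamini and Hochberg's method, gave an adjusted p of 0.9996 for each of them, and called none of the 13123 genes tested (0%). At an unadjusted p under 0.05, 1 of the 88 genes was higher and 0 were lower, against 1.36% and 1.02% of all genes tested. DESeq2 called none of the 88, and gave none an unadjusted p under 0.05. In bulk RNA, a level can differ because fewer cells of a kind or less RNA per cell are present, and these cannot be told apart.

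The intervals show how large a difference these libraries leave room for, gene by gene and without adjustment for the number of genes. The 95% interval of the fold change lay within 2-fold in either direction for 86 of the 88 genes and within 1.5-fold for 74. The median distance from the estimate to either end of its interval was 0.33 on the log2 scale. The intervals that reached past 2-fold were those of NDUFA7 and COX6B2. Differences smaller than these intervals were not detectable with 2 libraries per group.

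**Figure D2:**
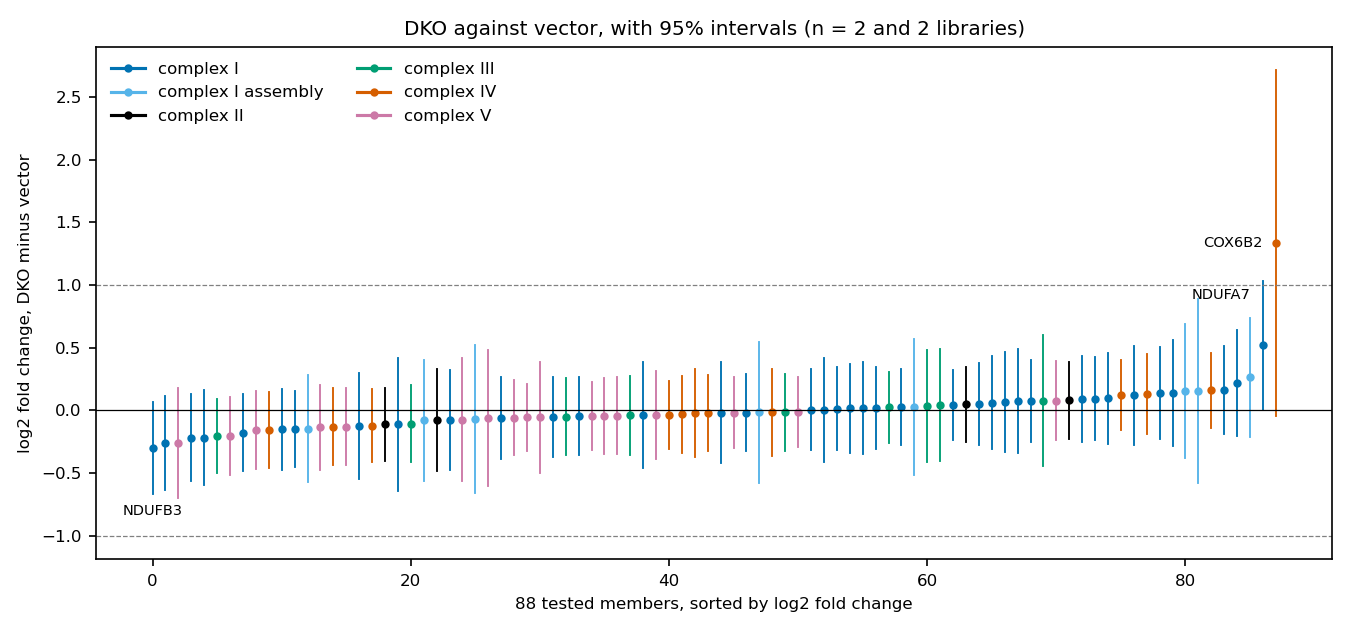
Log2 fold change of DKO against vector for the 88 tested genes, sorted by size, with bars for the 95% interval from edgeR's quasi-likelihood fit and dashed lines at 2-fold, coloured by complex. Bars of 86 genes stay between the dashed lines, and COX6B2 and NDUFA7 extend beyond the upper one.

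The median log2 fold change in DKO was −0.02 over the 88 genes, with 37 above 0 and 51 below, and −0.00 over all genes tested, of which 6465 were above 0 and 6658 below. By complex, the median was 0.02 for complex I, 0.01 for its assembly factors, −0.01 for complex II, −0.01 for complex III and −0.02 for complex IV. It was −0.06 for complex V, where 16 of 17 genes lay below 0. ATP5G3 was the exception at 0.08. Over the alternative fits, the complex V median ranged from −0.12 to −0.02 and 11 to 16 of its 17 tested genes lay below 0, with the fewest without vector 2. None of these 17 genes had an unadjusted p under 0.05.

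NDUFA7 (gene ID 4701), an accessory subunit of the matrix arm of complex I, was the 1 gene with an unadjusted p under 0.05. Its FPKM was 22.7 and 18.9 in vector, with MRCKα KO at 24.9, MRCKβ KO at 28.9 and DKO at 28.2 and 32.3. All 4 knockout libraries lay above both vector libraries. The log2 fold change in DKO was 0.52 (SE 0.21, 95% interval 0.01 to 1.03), with an adjusted p of 0.9996 in edgeR. The gene rests on 106 to 184 counts per library. Its unadjusted p was no longer under 0.05 without vector 2, without DKO 1 or without DKO 2, and its log2 fold change ranged from 0.40 to 0.66 over the alternative fits.

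COX6B2 (gene ID 125965) had the largest fold change. Its FPKM was 0.49 and 0.29 in vector, with MRCKα KO at 0.27, MRCKβ KO at 0.99 and DKO at 1.14 and 0.93, from 9, 5, 5, 18, 20 and 16 counts in that order. The MRCKβ KO and DKO libraries lay above vector and the MRCKα KO library below it. The log2 fold change in DKO was 1.33 (SE 0.57), with an adjusted p of 0.9996 in edgeR. At this depth a difference of a few reads sets the fold, and COX6B1 carried over 99% of the COX6B level in every library.

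The other genes with the highest fold changes in DKO were NDUFAF2 at 0.26, NDUFA13 at 0.22, NDUFA6 at 0.16 and COX5B at 0.16 on the log2 scale. NDUFAF2 is an assembly factor of complex I, and its FPKM was 46.2 and 51.7 in vector and 69.4 and 49.7 in DKO, so that 1 DKO library lay within the range of vector. Its log2 fold change was −0.01 without DKO 1 and 0.49 without DKO 2. NDUFA13, also known as GRIM-19, stood at 76.9 and 95.2 in vector and 90.4 and 113 in DKO, and the groups overlapped. With 1 library left out, its log2 fold change ranged from 0.05 (without DKO 2) to 0.38 (without vector 2), and was 0.07 without vector 1 and 0.36 without DKO 1. NDUFA6 was at 33.2 and 28.2 in vector and 35.5 and 34.3 in DKO, without overlap, and its log2 fold change was 0.05 without vector 2 and 0.28 without vector 1. COX5B, a zinc-binding subunit of complex IV, stood at 119 and 115 in vector, with MRCKα KO at 146, MRCKβ KO at 153 and DKO at 132 and 133. Here the 2 groups lay apart by more than the spread within them, while the interval of the log2 fold change ran from −0.14 to 0.46.

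The lowest fold changes were those of NDUFB3 at −0.30, NDUFB10 at −0.26, ATP5G1 at −0.26, NDUFA12 at −0.22, NDUFB1 at −0.22 and UQCRC2 at −0.20 on the log2 scale. NDUFB3 (gene ID 4709), a membrane-arm subunit of complex I, was at an FPKM of 39.5 and 37.3 in vector, with MRCKα KO at 36.1, MRCKβ KO at 34.4 and DKO at 32.5 and 30.5. Every knockout library lay below vector, and the interval of the log2 fold change in DKO ran from −0.67 to 0.06. NDUFB10 was at 54.1 and 59.4 in vector and 52.4 and 43.6 in DKO, and NDUFB1 at 62.5 and 66.2 in vector and 58.2 and 54.1 in DKO, both without overlap. The log2 fold change of NDUFB10 was −0.13 without DKO 2 and −0.41 without DKO 1. ATP5G1 was at 86.3 and 117 in vector and 81.1 and 91.1 in DKO, where vector 2 stood apart and the groups overlapped. Its log2 fold change was −0.02 without vector 2 and −0.46 without vector 1. NDUFA12 stood at 168 and 141 in vector and 139 and 130 in DKO, and its log2 fold change was −0.09 without vector 1 and −0.34 without vector 2. UQCRC2, a core protein of complex III, stood at 49.1 and 46.6 in vector and 43.6 and 40.6 in DKO.

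Both DKO libraries lay above both vector libraries in FPKM for 10 of the 88 genes, against 17% of all genes tested, and below both for 18 of the 88 genes, against 12.3%. The 10 were NDUFA6, NDUFA7, NDUFAB1, NDUFC1, SDHB, COX5A, COX5B, COX6A1, COX6B2 and NDUFAF5. The 18 included 9 subunits of complex I and 5 of complex V, namely ATP5G2, ATP5H, ATP5I, ATP5J and ATP5O. In counts the order can differ: ATP5J had 588 and 597 in vector and 567 and 600 in DKO. For 7 genes all 4 knockout libraries lay above both vector libraries (6.71% of all genes tested), and for 7 all lay below (5.06%). The first were NDUFA6, NDUFA7, NDUFAB1, NDUFC1, SDHB, COX5B and COX6A1, and the second included NDUFB1, NDUFB3, NDUFB10, NDUFS7 and ATP5G2. Both kinds were thus found within complex I. COX6A1 was at 438 and 394 in vector, with MRCKα KO at 474, MRCKβ KO at 486 and DKO at 457 and 460. SDHB was at 68.0 and 66.1 in vector, with MRCKα KO at 72.7, MRCKβ KO at 73.9 and DKO at 74.9 and 68.99. ATP5G2 was at 171 and 166 in vector, with MRCKα KO at 138, MRCKβ KO at 157 and DKO at 136 and 163. NDUFS7 was at 25.6 and 24.9 in vector, with MRCKα KO at 20.9, MRCKβ KO at 22.4 and DKO at 24.2 and 23.3. The 3 comparisons share the vector libraries, so a low or high vector level enters all of them.

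**Figure D3:**
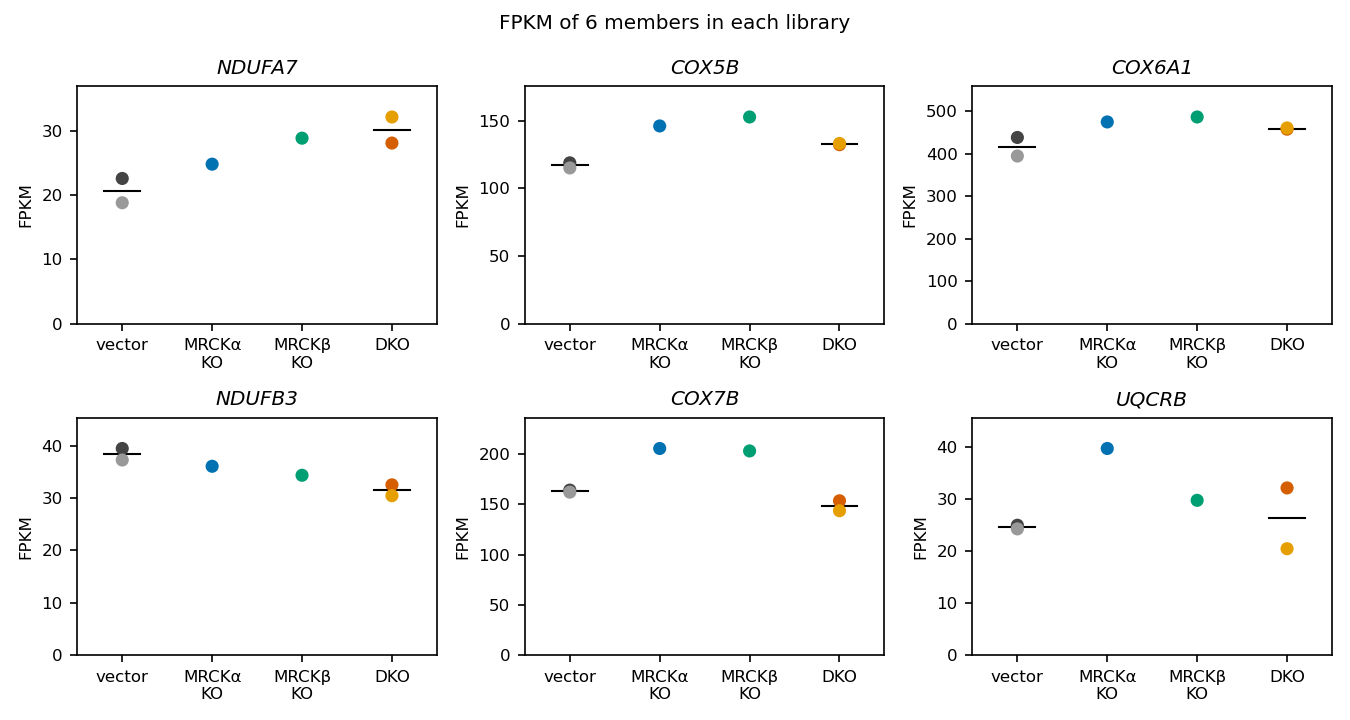
FPKM of NDUFA7, COX5B, COX6A1, NDUFB3, COX7B and UQCRB in each library, with 2 points and a line at the mean for vector and DKO and 1 point for each single knockout. COX7B reaches 206 and 203 in the single knockouts and 154 and 144 in DKO, and UQCRB reaches 39.6 in MRCKα KO.

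With 1 library of each single knockout, what follows on them is not backed by replicates. The study's fold rule was applied to FPKM, leaving out genes more than 2-fold apart between replicates. The paper also states that genes of poor expression were excluded, but its methods give no cutoff, and that step was not applied here. Of the 89 genes of the set with a ratio, 0 passed 2-fold after loss of MRCKα, 1 after loss of MRCKβ and 1 after loss of both, against 4.42%, 3.53% and 1.78% of all genes with a ratio. The gene was COX6B2 in both cases. Without it, the log2 ratios of FPKM ranged from −0.43 to 0.69 in MRCKα KO and from −0.39 to 0.48 in MRCKβ KO. With 0.1 added to each FPKM, COX7A1 also passed in MRCKα KO and NDUFA4L2 in MRCKβ KO, both at 2 counts.

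In MRCKα KO, 43 of the 88 genes lay above both vector libraries and 19 below both, against 32.4% and 27% of all genes tested. In MRCKβ KO, 35 lay above and 23 below, against 30.1% and 29.1%. The median log2 ratio, on the log2(FPKM + 0.1) scale against the mean of vector, was 0.07 in MRCKα KO and 0.03 in MRCKβ KO, beside 0.01 and 0.00 for all genes tested. The vector libraries themselves stood at −0.02 and 0.02. Among other groups, the MRCKα KO median was 0.10 over 39 assembly factors of complexes II to V and 0.06 over genes of the citric acid cycle and pyruvate dehydrogenase. It was 0.04 over 77 mitochondrial and 0.03 over cytosolic ribosomal protein genes, and 0.01 over 8 carriers and related genes. Above both vector libraries lay 22 of the assembly factors, 34 of the mitochondrial ribosomal protein genes and 2 of the carriers. In MRCKα KO the median was 0.08 for complex II, 0.02 for complex IV, 0.06 for complex V and 0.07 for the accessory subunits of complex I. It was 0.19 over the 9 tested genes of complex III, of which 7 lay above both vector libraries, and −0.09 over the 7 core subunits of complex I, of which 4 lay below both.

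The genes named next were chosen after their values were seen, and are ranked among the 88 tested genes only. UQCRB (gene ID 7381), a subunit of complex III, had the largest log2 ratio in MRCKα KO at 0.69. Its FPKM was 24.9 and 24.2 in vector, with MRCKα KO at 39.6, MRCKβ KO at 29.7 and DKO at 32.1 and 20.4. The MRCKα KO value rests on 2029 counts, and the 95% interval of the log2 ratio of counts was 0.61 to 0.78, which covers counting error only. DKO 1 lay above vector and DKO 2 below it. NDUFA6 at 0.48, NDUFAF2 at 0.43 and NDUFB7 at 0.34 followed in MRCKα KO. The lowest there were NDUFAF7 at −0.42, COX8A at −0.39 and UQCRC1 at −0.36, apart from COX6B2. COX8A stood at an FPKM of 285 and 306 in vector, with MRCKα KO at 225, MRCKβ KO at 264 and DKO at 295 and 290.

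COX7B, a small subunit of complex IV, was at 164 and 162 in vector, with MRCKα KO at 206, MRCKβ KO at 203 and DKO at 154 and 144. Both single knockouts lay above vector and both DKO libraries below it. Among the 88 tested genes in MRCKβ KO, the highest log2 ratios after COX6B2 were those of NDUFA7 at 0.48 and COX5B at 0.38, and the lowest were NDUFAF8 at −0.39, NDUFAF3 at −0.36 and NDUFS8 at −0.33. NDUFS8, a core iron-sulfur subunit, stood at 67.8 and 68.7 in vector, with MRCKα KO at 60.0, MRCKβ KO at 54.4 and DKO at 63.8 and 70.0.

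The differences in the single knockouts were larger for short transcripts, and the vector libraries also differed by length. In MRCKα KO the median log2 ratio was 0.16 for the 21 genes of the set under 600 bases, 0.09 from 600 to 1000 bases, 0.04 from 1000 to 2000 bases and −0.03 for the 13 genes over 2000 bases. Over all genes tested it was 0.07 for the 128 genes under 600 bases and 0.01 for those over 2000 bases. In MRCKβ KO the values for the set were 0.11 under 600 bases and −0.02 over 2000 bases, and for all genes 0.06 and −0.00. Under 600 bases, vector 1 and vector 2 stood at −0.04 and 0.04 for the set and for all genes, and over 2000 bases all genes stood at 0.01 and −0.01. This spread between the vector libraries is close in size to the values over all genes. In DKO 1 the set stood at 0.03 under 600 bases, and in DKO 2 at −0.06. Without the genes under 600 bases, the median of the set in MRCKα KO was 0.05 in place of 0.07. The part of transcript length in the difference was not tested.

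**Figure D4:**
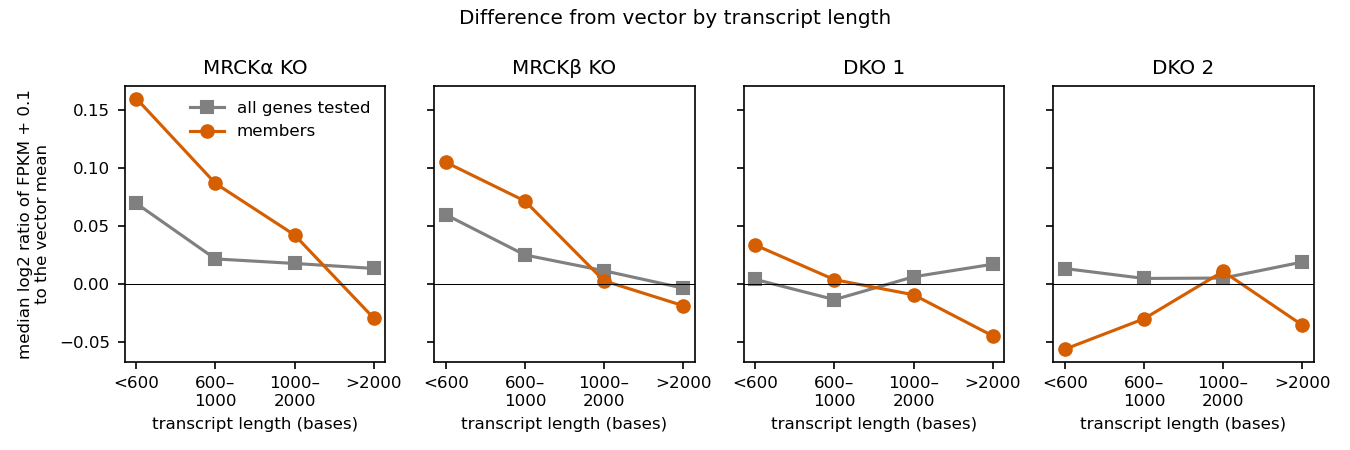
Median log2 ratio of FPKM + 0.1 to the mean of vector in each knockout library, by transcript length in bases, for the oxidative phosphorylation genes and for all genes tested. In MRCKα KO the set goes from 0.16 under 600 bases to −0.03 over 2000 bases.

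The regulators listed here, of which some (such as TFAM) act on mitochondrial DNA and not on these nuclear genes, were present in all libraries. Of 15 regulators tested, 1 was higher at an unadjusted p under 0.05 and 0 were lower, against 1.36% and 1.02% of all genes tested. The gene was MYC, at an FPKM of 83.7 and 61.2 in vector, with MRCKα KO at 96.1, MRCKβ KO at 109 and DKO at 110 and 93.7 (log2 fold change 0.47, adjusted p 0.9996 in edgeR). NRF1 stood at 5.34 and 6.30 in vector and 5.50 and 6.80 in DKO, and TFAM, which maintains and transcribes mitochondrial DNA, at 63.3 and 60.6 in vector and 63.4 and 65.7 in DKO. The groups overlapped for NRF1, and for TFAM the DKO libraries lay just above vector in FPKM with a fitted log2 fold change of −0.01. GABPA, the DNA-binding subunit of GABP, was at 11.2 and 8.17 in vector and 8.25 and 7.78 in DKO. PPARGC1A, a coactivator of mitochondrial biogenesis, was low, at 2.06 and 1.51 in vector and 2.89 and 2.33 in DKO. Its DKO libraries lay above vector, with the highest log2 fold change of the 15 regulators (0.51, adjusted p 0.9996 in edgeR). Both DKO libraries lay above both vector libraries for 4 of the 15 regulators and below both for 0, against 17% and 12.3% of all genes tested.

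Other mitochondrial groups also showed small medians in DKO. The median log2 fold change was −0.01 over 39 assembly factors of complexes II to V. It was 0.00 over 16 genes of the citric acid cycle and pyruvate dehydrogenase. For 8 carriers and related genes it was −0.05, and for 77 mitochondrial ribosomal protein genes −0.01. In that order, 0, 0, 0 and 1 genes had an unadjusted p under 0.05 in edgeR. The 1 gene was MRPL4, which was higher. Cytosolic ribosomal protein genes, the comparison set of similar length, had a median of −0.04 over 79 genes. Of these, 2 were higher and 0 lower at an unadjusted p under 0.05. Over all genes tested, 1.36% were higher and 1.02% lower. SCO2, a copper chaperone for complex IV, was the highest of the assembly factors at 0.53, and SDHAF4, for complex II, the lowest at −0.50. CYCS, the gene of cytochrome c, stood at 36.5 and 49.8 in vector and 40.8 and 45.2 in DKO.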

How the data were processed

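RNA from the 6 libraries was sequenced single-end by BGI. In the files deposited by the authors, the expected counts are read estimates for each gene without normalization. The deposited FPKM values divide reads by transcript length and library total, with 2 decimals. The submitters' processing notes name HISAT, Bowtie2, RSEM and GRCh38.p11. Transcript lengths were taken from the deposited files.

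Expected counts were rounded to whole numbers. Genes were kept by filterByExpr, scaled by TMM and tested with edgeR 4.0.16 (glmQLFit and glmQLFTest, R 4.3.3) on the 2 vector and 2 DKO libraries. No replicate block was used, and p-values were adjusted by Benjamini and Hochberg's method over 13123 genes, with a threshold of 0.05. The script was tested on simulated data. The study's own design, a 2-fold rule on FPKM without a test, was applied beside it, without its exclusion of poorly expressed genes. The alternatives were DESeq2 1.42.0, limma 3.58.1 on FPKM after adding 0.1 or 1 and taking log2 (mean FPKM 0.5 or higher), other scalings and filters, a fit with the replicate number as block, a joint fit of all 6 libraries and each replicate left out. The p-values measure the spread between these libraries, which are separate transductions or guide sets of 1 cell line. Count intervals and limits cover counting error only.

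The genes of the set and all lists were chosen with earlier results of these data known. Genes named with full values are the highest and lowest of each complex by mean FPKM, the 6 highest and 6 lowest fold changes in DKO, those with an unadjusted p under 0.05 or past the 2-fold rule, isoform sets, and for other lists the extremes and key regulators. Not every such gene is named, and others are marked as chosen after their values were seen.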

Additional observations from a re-analysis of the deposited data

Results flagged for a closer look

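In 14 of the 88 tested genes, the difference from vector had opposite directions in a pair of knockouts, with every library of one knockout above both vector libraries and every library of the other below them. The same held for 16.5% of all genes tested, so the share in the set was near that of all genes. Sides were read from FPKM, and some margins were small, as for UQCRFS1 at 88.52 in MRCKβ KO and 88.66 in vector 2. These differences were not tested, since each single knockout has 1 library. MRCKα KO and MRCKβ KO lay on opposite sides of vector for 11 of the 88 genes (13.5% of all genes tested). MRCKα KO lay above and MRCKβ KO below vector for ATP5L, with a difference of 32.3 FPKM, NDUFA1 (21.9), ATP5I (18.6), UQCRFS1 (12.5), NDUFAF8 (12.3), ATP5A1 (7.56) and ATP5F1 (5.59). The reverse held for COX7A2L, at −10.5 FPKM for MRCKα KO minus MRCKβ KO, NDUFS1 (−3.18), NDUFV3 (−1.45) and COX6B2 (−0.72, at most 20 counts in a library).

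MRCKα KO and DKO lay on opposite sides for 5 genes (4.69% of all genes tested), with a difference of MRCKα KO minus the mean of DKO of 57 FPKM for COX7B, 13.95 for ATP5O, 12.5 for ATP5I, 10.7 for ATP5J and −0.76 for COX6B2. MRCKβ KO lay above vector and DKO below it for 2 genes (5.12% of all genes tested), COX7B, at a difference of 54.6 FPKM, and COX7A2L, at 9.14 FPKM.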

How the results depend on the processing

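No gene of the set was called in DKO under any alternative. The number with an unadjusted p under 0.05 and a higher level, 1 (NDUFA7), was 0 with DESeq2 and with at least 10 counts in every library, and 2 (NDUFA7 and COX6B2) with both limma fits. With each replicate left out it ranged from 0 to 1, and the number with a lower level from 0 to 2 (NDUFS6 and ATP5G1 without vector 1, NDUFA12 without vector 2). Without DKO 1, NDUFAF2 was at −0.0078 on the log2 scale (0.4852 without DKO 2). The median fold change of the set ranged from −0.05 to 0.01 with a replicate left out and was 0.00 with library-size scaling, so its sign differed between alternatives.

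The 2-fold rule gave 1 gene in MRCKα KO with a pseudocount of 0.1 (COX7A1) or without exclusion of discordant replicates (COX7B2). In MRCKβ KO it gave 2 with a pseudocount of 0.1, and 0 with a pseudocount of 1 or a mean FPKM of at least 1. In DKO it gave 0 with a pseudocount of 1. The median log2 ratio in MRCKα KO ranged from 0.0402 (without vector 1) to 0.0916 (without vector 2), and was 0.0487 without genes under 600 bases, an alternative chosen after seeing the data.

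With the replicate number as a block, 0 genes of the set were called, 1 was higher at an unadjusted p under 0.05 and the median was −0.02. Libraries of the same number deviated together with r = 0.28 over 13123 genes, but with 2 pairs and no label that ties the numbers they were not treated as paired. Depth limits COX6B2 and the 5 untested genes, and 2 libraries per group limit all others.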

Other observations

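Genes of the hypoxia response and glycolysis, which stand beside oxidative phosphorylation in energy metabolism, formed another list, which was chosen with earlier results known and whose difference from the respiratory chain genes was not tested. Of 16 tested genes, 14 had a log2 fold change below 0, with a median of −0.26, and 10 lay below both vector libraries in both DKO libraries, against 12.3% of all genes tested. At an unadjusted p under 0.05, 2 were lower, VEGFA and LDHA (1.02% of all genes tested), and none passed adjustment in edgeR. VEGFA, an angiogenic factor, stood at an FPKM of 56.9 and 72.9 in vector and 47.5 and 51.5 in DKO. EGLN3, an oxygen-sensing prolyl hydroxylase, had the lowest log2 fold change at −1.04 (SE 0.44). Its level was low, at an FPKM of 1.88 and 1.94 in vector and 1.12 and 0.59 in DKO. ADM (adrenomedullin) had the highest at 0.33 (SE 0.27), at 88.15 and 76.96 in vector and 74.86 and 135.93 in DKO. For ADM, DKO 1 lay below both vector libraries and DKO 2 above them. In MRCKα KO, 12 of the 16 genes lay below both vector libraries, against 27% of all genes tested, and in MRCKβ KO 2 did, against 29.1%.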
